A study of Canis lupus familiaris with 6 samples.

Results

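Glycolysis and hypoxia response genes were followed in RasV12-transformed epithelial cells, as a set of 34 genes. They were chosen by name, though with earlier results of these data known. The names cover glucose and lactate transporters, the enzymes of glycolysis, the enzymes that set fructose 2,6-bisphosphate, the hypoxia-inducible factors (HIFs), the prolyl hydroxylases that act on them, and genes that HIFs are known to switch on. On the array, 32 of these genes had a probe under their name, with 71 of the 43603 probes in all, while ENO1 and BNIP3 had none under that name and were not analysed here. Of the 71 probes, 67 could be tested, and they stood for 30 genes. Each gene was read at its brightest probe, and its other probes served as a check.

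The cells were MDCK (Madin-Darby canine kidney) cells, a line of dog kidney epithelium, carrying GFP-tagged RasV12 under a tetracycline-inducible promoter (MDCK-pTR GFP-RasV12). RasV12 is a mutant form of the small GTPase Ras that stays active. All 6 samples received tetracycline for 24 h, were taken off the dish with Accutase and were sorted for GFP. The 3 samples called alone came from RasV12 cells grown by themselves, and the 3 called mixed came from RasV12 cells grown among an excess of normal MDCK cells. The sample titles and the study's methods give these cells without mutant β-catenin, whereas the labels' account of the extraction speaks of cells with β-catenin Δ131, and the titles are followed here. The source names give 1 RasV12 cell to 10 normal cells for mixed replicates 1 and 3, and 1 to 100 for mixed replicate 2. The methods describe a single ratio for the mixed cultures, with normal cells in 10-fold excess, so the label of that sample conflicts with them, and its true ratio is not known here. Nothing says that the samples of a group came from separate cultures, so p-values measure the spread between these samples only. The sources do not say whether the RasV12 cells are 1 clone.

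Glycolysis splits glucose into pyruvate with a small yield of ATP, and lactate dehydrogenase turns pyruvate into lactate that leaves the cell through monocarboxylate transporters. In well-oxygenated cells the EGLN prolyl hydroxylases mark HIF-1α for destruction, so that the factor is controlled largely at the level of its protein, and when oxygen is low it builds up and raises transcription of glycolytic genes, VEGFA, CA9 and EGLN3. Oncogenic Ras is known to raise glucose uptake and glycolysis in many cell types. RNA levels on an array report neither enzyme activity nor the amount of HIF protein.

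Each probe is a single 60-base oligonucleotide, and in several genes the probes did not give equal differences, so some of the probes are printed here as deposited, 5′ to 3′. Only probes that lie in coding sequence were chosen for printing, and none of PFKFB3 or PFKM is printed. For HIF1A, P4HA1, VEGFA and PGAM1 the printed probe is not the brightest one. Its difference is larger in size than that of the brightest probe, at which the gene is read. The first set holds probes that passed the test, in 1 gene each, with the positions that the array's annotation gives on canFam3.
EGLN1: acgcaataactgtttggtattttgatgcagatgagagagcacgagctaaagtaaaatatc
PFKL: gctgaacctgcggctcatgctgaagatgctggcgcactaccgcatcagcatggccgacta
HIF1A: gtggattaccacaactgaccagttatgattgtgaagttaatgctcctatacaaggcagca
P4HA1: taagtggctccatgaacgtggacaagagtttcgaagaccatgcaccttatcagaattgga
VEGFA: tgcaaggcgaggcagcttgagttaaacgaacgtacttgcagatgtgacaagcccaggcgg
PGAM1: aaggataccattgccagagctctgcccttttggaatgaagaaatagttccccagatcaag

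The EGLN1 probe lies at chr4:8107018-8107077 on the plus strand (transcript ENSCAFT00000037161) and the PFKL probe at chr31:38178347-38178406 on the plus strand (ENSCAFT00000017399). The HIF1A probe starts at base 2649 of transcript NM_001287163, at chr8:36655410-36655469 on the plus strand. The P4HA1 probe starts at base 1573 of ENSCAFT00000023158, at chr4:23601984-23602043 on the minus strand. The VEGFA probe starts at base 859 of NM_001003175 and spans chr12:12220769-12223069 on the plus strand, a stretch of 2301 bases, so that it crosses a splice junction. The PGAM1 probe starts at base 468 of ENSCAFT00000014412, at chr28:10725350-10725409 on the plus strand. In all, 16 of the 71 probes spanned a junction in this way.

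The second set holds 4 GAPDH probes of NM_001003142 that overlap across a junction on chromosome 27, minus strand, named here by their first base in the transcript. The 22 bases in capitals are the longest run that all 4 share.
GAPDH probe at 889: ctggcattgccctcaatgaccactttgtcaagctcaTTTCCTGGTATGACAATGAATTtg
GAPDH probe at 900: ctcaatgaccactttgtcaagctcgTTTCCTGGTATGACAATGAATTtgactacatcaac
GAPDH probe at 903: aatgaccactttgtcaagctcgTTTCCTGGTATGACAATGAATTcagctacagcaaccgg
GAPDH probe at 905: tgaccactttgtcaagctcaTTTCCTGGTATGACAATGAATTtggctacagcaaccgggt
Where these probes overlap, any 2 of them differ at 0 to 4 bases. Near-identical copies of such a gene can bind the same probe, so GAPDH signals cannot be assigned to 1 copy with certainty.

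Signals are given as log2 intensity minus the 75th percentile of the same array, so a value of 0 means a signal at that percentile, which lay between 592 and 699.6 units of intensity. Differences between groups are compared only within a probe, and the intensities of different probes, where given, are not taken to rank RNA levels. On each array 60.8% to 66.4% of probes stood well above background and none was saturated, and 3 arrays against 3 limit the precision. Each group had a slide of its own, so that an effect of the slide cannot be told apart from one of the culture. The array of alone replicate 1 stood apart from its group: over the tested probes it correlated at 0.9915 and 0.9925 with the other alone arrays and at 0.9942 with mixed replicate 1, whereas alone replicates 2 and 3 correlated with each other at 0.9981. Where leaving out this array changed a call of a gene of the set, the value without it is given too. Some small differences also moved without it, among them SLC16A1 (from -0.08 to -0.16), SLC16A3 (from 0.03 to 0.12) and ADM (from -0.03 to -0.12), none past the threshold. Kidney epithelial markers were well above background on all 6 arrays for 10 of 10 genes on the array, with EPCAM, KRT18 and KRT19 bright, and 0 of them passed limma's test (4 at an unadjusted p under 0.05, 0 by the methods' t-test), but 4 passed, all higher in mixed culture, without alone replicate 1, when 13.2% of all names were higher, and CLDN4 passed under the replicate block (adjusted p = 0.0315). Of 12 leukocyte, endothelial and fibroblast markers, PTPRC and CDH5 were well above background on 0 arrays, DCN on 1 and CD3E on 5. CD68, CD14, PECAM1, KDR, COL1A1, COL1A2, PDGFRB and ACTA2 were well above background on all 6 arrays. CD68 was the brightest of them, at 909 to 1060 units of intensity alone and 915 to 1030 mixed. The summed intensity of the 12 was 2460 to 2840 alone and 2540 to 2910 mixed. None of the 9 tested passed limma's test (1 at an unadjusted p under 0.05, 0 by the methods' t-test).

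The comparison asks whether RNA of these genes differed in RasV12 cells when normal cells surrounded them. With 6 of 30 genes past the threshold, mixed culture showed lower PFKFB3, HIF1A, PFKM and P4HA1 and higher PFKL and EGLN1 than culture alone, by 1.26-fold to 1.48-fold. Over the whole array, 10.9% of all 19626 tested names passed at their brightest probe and 11.2% of all probes (limma, Benjamini-Hochberg adjustment over 26535 probes, two-sided, threshold 0.05). By direction, 4 of 30 were lower against a background of 5.29%, and 2 were higher against 5.63%. The differences of the 30 genes had a median of -0.15 on the log2 scale, with 21 below 0 and 9 above. The median was 0.01 over the brightest probe of each name and -0.0037 over all tested probes. How all names split by sign was not counted. The groups did not overlap for 18 genes, 15 of them lower and 3 higher in mixed culture, where 36.5% of all names had no overlap, 18.0% lower and 18.5% higher.

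In RNA pooled from sorted cells, a difference in every cell and a difference in the share of cells that carry the RNA cannot be told apart. The calls depended on single arrays. Without alone replicate 1, the number of genes past the threshold rose to 10, with ALDOC, CA9, EGLN3 and ENO2 added to the 6, while the share of all names past it rose to 26.3%. The adjusted p of the 6 was then 0.00657 to 0.0319. Without mixed replicate 1 it was 1 (PFKFB3), with 7.46% of all probes past the threshold. It was 0 without alone replicate 2, alone replicate 3, mixed replicate 2 or mixed replicate 3, when 0.09%, 0.0263%, 0.0338% and 0.045% of all probes passed limma's test. In each of these cases 10 of the 30 genes had an unadjusted p under 0.05 by limma. The share of all names at that unadjusted level was not counted. This and the other unadjusted counts given here therefore have no background to be read against. The number of genes past the threshold was 4 with the replicate number as a block and 3 with the methods' t-test, an unpaired test of each probe, where 10.6% and 3.11% of all probes passed. Scaled to the spike-in controls, which were higher on the mixed arrays, the median of all probes moved to -0.16 and the split of all calls from 1459 higher and 1519 lower to 301 and 694. The genes' median was then -0.31, and 2 of them (PFKFB3 and NDRG1) passed, both lower, against 3.75% of all probes.

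**Figure D1:**
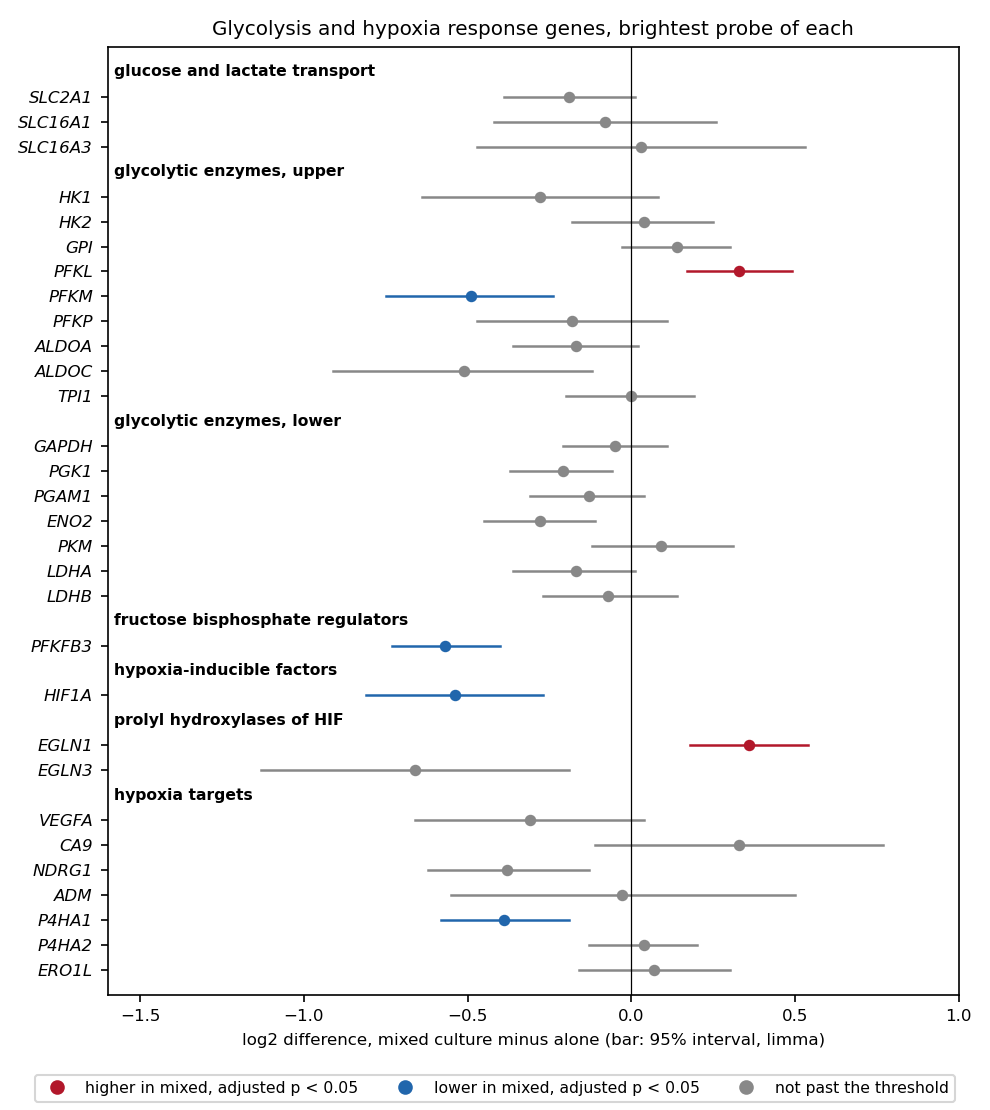
Difference between mixed culture and culture alone for the brightest probe of each of the 30 tested genes, grouped by role, on the log2 scale. Points are the differences and bars their 95% intervals from limma with 3 arrays a group. PFKL and EGLN1 (red) lie above 0, PFKFB3, HIF1A, PFKM and P4HA1 (blue) lie below it, and the other 24 genes did not pass the threshold.

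Among the transporters, none of 3 passed limma's test (0 at an unadjusted p under 0.05, 0 by the methods' t-test). With 10.9% of all names past the threshold, a count over 3 genes says little. SLC2A1 (GLUT1), the main glucose transporter of epithelial cells in culture, gave 6.97, 6.97 and 6.93 in the alone samples and 6.85, 6.82 and 6.63 in the mixed samples. All 3 mixed values lay below all 3 alone values, by a narrow margin. The difference was -0.19 (SE 0.08, 95% interval -0.39 to 0.01, adjusted p = 0.175), and -0.12 without mixed replicate 3. Its other probe gave -0.37 (adjusted p = 0.108). SLC16A1 (MCT1), which moves lactate in both directions, differed by -0.08 (adjusted p = 0.736), and by -0.12 at its other probe (-0.20 without alone replicate 1). SLC16A3 (MCT4), which exports lactate and is a known HIF target, differed by 0.03 (adjusted p = 0.942), and its mixed values ran from 0.80 to 1.57 against 0.97 to 1.26 alone.

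Hexokinases trap glucose in the cell by phosphorylating it. HK1, the widely expressed form, differed by -0.28 (adjusted p = 0.248), with overlapping groups, and by -0.44 without mixed replicate 1 and -0.17 without mixed replicate 3. HK2, the form that growth signals and HIF raise in many cells, gave opposite pictures at its 2 probes, which lie on the same transcript with starts 126 bases apart. At the brightest probe the alone samples read 2.42, 2.64 and 2.38 and the mixed samples 2.52, 2.51 and 2.52. The mixed values fell inside the range of the alone values, and the difference was 0.04 (SE 0.09, 95% interval -0.18 to 0.25, adjusted p = 0.817).
At the probe starting at base 2897, the alone samples read -0.77, 0.08 and 0.02 and the mixed samples -1.35, -1.05 and -1.26. Alone replicate 1 lay between the other alone samples and the mixed ones, and the groups did not overlap. This probe differed by -1.0 (SE 0.23, adjusted p = 0.0426), and by -1.27 (adjusted p = 0.00448) without alone replicate 1. Averaged over both probes, HK2 differed by -0.48 (adjusted p = 0.0805). No direction for HK2 can be given from these probes together.

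Phosphofructokinase commits sugar to glycolysis and exists as liver (PFKL), muscle (PFKM) and platelet (PFKP) isoforms, of which PFKL was higher and PFKM lower in mixed culture. PFKL read 0.62, 0.59 and 0.61 in the alone samples and 0.99, 0.94 and 0.90 in the mixed samples. The groups were well separated, with an SD of 0.02 alone and 0.05 mixed (n = 3 each). PFKL was 0.33 higher in mixed culture (SE 0.07, 1.26-fold, adjusted p = 0.0313), and with the replicate number as a block its adjusted p was 0.0501. With spike-in scaling it gave 0.17 (adjusted p = 0.334). Its other probe, which crosses a junction, gave 0.29 (adjusted p = 0.0718).
PFKM read 1.27, 1.47 and 1.43 in the alone samples and 0.98, 0.98 and 0.72 in the mixed samples. All mixed values lay below all alone values. The difference was -0.49 (SE 0.10, 0.710-fold, adjusted p = 0.0354; 0.0528 with the replicate block). Its dimmer probe, near the start of the transcript, gave -0.19 (adjusted p = 0.468) with overlapping groups, and the mean over both probes gave -0.34 (adjusted p = 0.118). PFKP differed by -0.18 (adjusted p = 0.350), by -0.31 without mixed replicate 1 and by -0.09 without mixed replicate 2.

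The other enzymes of the first steps did not pass. GPI, which interconverts glucose and fructose phosphates, gave 0.14 (adjusted p = 0.223), and the sign turned (-0.02) with spike-in scaling. The aldolases split fructose 1,6-bisphosphate. ALDOA, the main form, gave -0.17 (adjusted p = 0.207). ALDOC, which is a known hypoxia-responsive form, read 2.07, 2.66 and 2.63 in the alone samples and 1.87, 2.02 and 1.92 in the mixed samples. Alone replicate 1 lay close to the mixed samples. ALDOC gave -0.51 (SE 0.17, adjusted p = 0.0921) and -0.70 (adjusted p = 0.00568) without that array, and its other probes gave -0.52 and -0.56 on all arrays, and -0.75 and -0.84 (adjusted p = 0.00486 and 0.00704) without it. TPI1, which interconverts the triose phosphates, gave -0.0025 (adjusted p = 0.987).

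From GAPDH to lactate dehydrogenase, 0 of 7 genes passed limma's test, where 10.9% of all names passed, so a count over 7 genes says little. At an unadjusted p under 0.05, a level at which all names were not counted, there were 2 (PGK1 and ENO2). By the methods' t-test there was 1 (PGK1). Of the 7 differences, 6 were below 0. All 7 GAPDH probes gave between -0.14 and 0.04, and none passed. The 4 overlapping probes printed above gave -0.06 to 0.04. PGK1, which yields the first ATP of the pathway, read 5.74, 5.71 and 5.68 in the alone samples and 5.53, 5.48 and 5.48 in the mixed samples. Mixed and alone values were separate, and the spread within each group was small. The difference was -0.21 (SE 0.07, adjusted p = 0.0834), and -0.39 (adjusted p = 0.0868) at its other probe.
PGAM1, a phosphoglycerate mutase, gave -0.13 (adjusted p = 0.267) at its brightest probe and -0.14 (adjusted p = 0.243) at an overlapping one. At the printed probe in the coding sequence the alone samples read 4.87, 4.82 and 4.77 and the mixed samples 4.59, 4.42 and 4.42. These groups were separate, and the difference of -0.34 (SE 0.08) passed, with an adjusted p of 0.0421 (0.0501 with the replicate block, 0.0591 with quantile normalization). ENO2, the neuron-type enolase, gave -0.28 (SE 0.07, adjusted p = 0.0553; 0.0467 without alone replicate 1) and -0.07 (adjusted p = 0.623) at its other probe. PKM, the pyruvate kinase, gave 0.09 (adjusted p = 0.522) and -0.05 (adjusted p = 0.624) at its probes.
LDHA, which favours lactate formation, read 7.27, 7.15 and 7.25 in the alone samples and 7.11, 6.96 and 7.09 in the mixed samples. The mixed values lay just below the alone ones. The difference was -0.17 (SE 0.08, 95% interval -0.36 to 0.01, adjusted p = 0.182), and its other probes gave -0.23 (adjusted p = 0.0771) and -0.18 (adjusted p = 0.145). LDHB, which favours the return to pyruvate, gave -0.07 (adjusted p = 0.637).

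PFKFB3 makes fructose 2,6-bisphosphate, the strongest known activator of phosphofructokinase, and had the lowest adjusted p of the 30 genes. The alone samples read 6.30, 6.27 and 6.28 and the mixed samples 5.78, 5.71 and 5.67. The samples of a group almost coincided (SD 0.02 alone and 0.05 mixed, n = 3 each), and the groups lay far apart for that spread. The difference was -0.57 (SE 0.07, 95% interval -0.73 to -0.40, 0.676-fold, adjusted p = 0.0136). The other 3 tested probes of the transcript were also lower, at -0.59 (adjusted p = 0.0251), -0.70 (adjusted p = 0.0174) and -1.01 (adjusted p = 0.0364; 0.0519 with the replicate block). The fifth probe, annotated to another transcript, was well above background on 0 arrays. Of 15 alternative settings, PFKFB3 passed at its brightest probe in 10, with values of -0.73 to -0.50 over all 15. The deposited table, which counts among the 10, holds nearly the same values as the reported fit. PFKFB3 was below 0 in 15, but most settings could not turn the sign. Several use the same difference, and with groups that did not overlap, leaving out 1 array could not turn it. The other genes past the threshold passed in fewer settings: PFKL and EGLN1 in 7, P4HA1 in 6, and PFKM and HIF1A in 5.
The related PFKFB4 has 1 probe, which was well above background on 0 arrays (2.53 to 4.75 units of intensity alone and 3.49 to 6.33 mixed), and no difference is given.

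**Figure D2:**
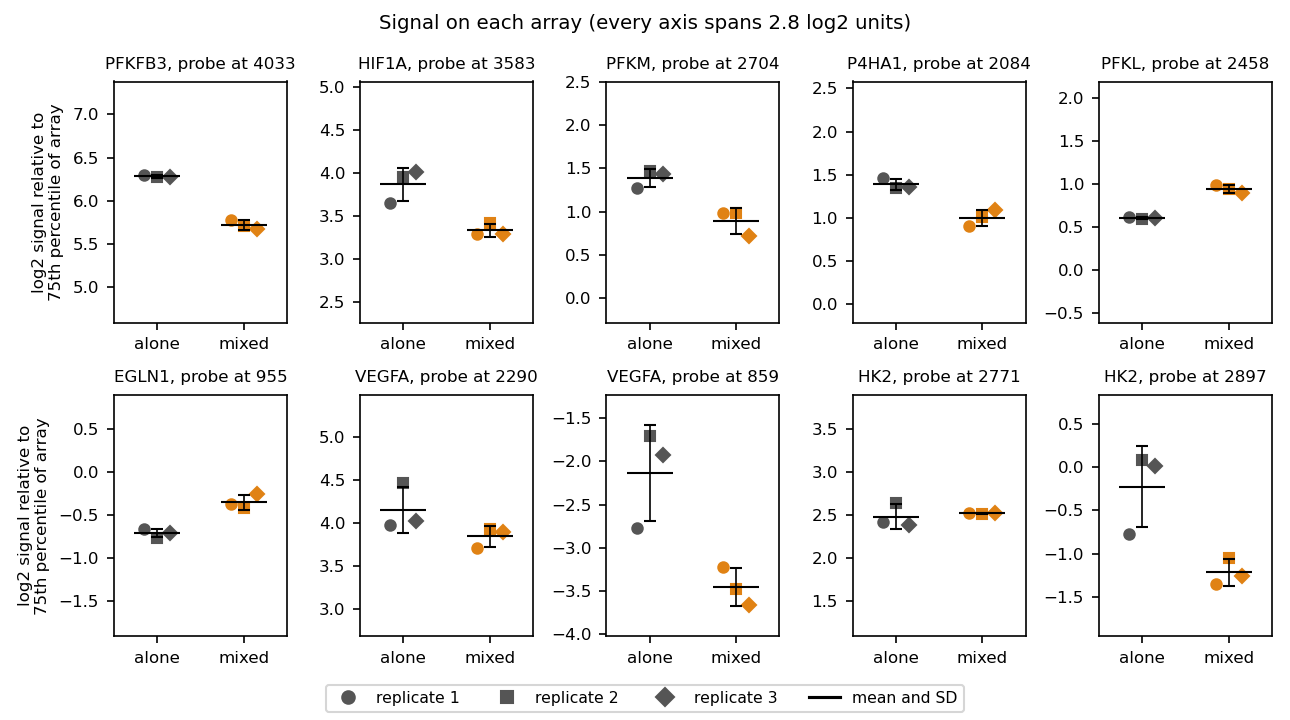
Signal on each of the 6 arrays, as log2 intensity relative to the 75th percentile of the array, for the 6 genes past the threshold and for both probes of VEGFA and HK2, named by the first base of the probe in the transcript. Symbols mark replicates 1 to 3, lines the mean and bars the SD (n = 3). PFKFB3 and PFKL show little spread within groups, and at the VEGFA probe at 859 and the HK2 probe at 2897 alone replicate 1 lies nearest to the mixed samples.

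HIF1A encodes the oxygen-regulated subunit of HIF-1. The alone samples read 3.65, 3.95 and 4.01 and the mixed samples 3.29, 3.42 and 3.29. All mixed values lay below all alone values, with alone replicate 1 closest to them. HIF1A was lower in mixed culture, with a difference of -0.54 (SE 0.11, 95% interval -0.81 to -0.27, 0.689-fold, adjusted p = 0.0349), and -0.65 (adjusted p = 0.00657) without that array. The printed probe gave -0.69 (adjusted p = 0.0370), and the probe nearest the start of the transcript -0.51 (adjusted p = 0.0912; 0.0416 with the replicate block), and -0.68 (adjusted p = 0.0160) without alone replicate 1. With quantile normalization HIF1A gave -0.49 (adjusted p = 0.0611), and averaged over its probes -0.58 (adjusted p = 0.0509), neither past the threshold. The other alpha subunit, EPAS1 (HIF-2α), was at most at the edge of detection. Its brighter probe read 9.09 to 14.2 units of intensity alone and 3.68 to 5.12 mixed, and was well above background on 1 alone array only, so it was not tested.

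Of the prolyl hydroxylases, EGLN1 passed and EGLN3 did not. EGLN1 (PHD2), the main oxygen sensor that marks HIF-1α, read -0.66, -0.76 and -0.70 in the alone samples and -0.37, -0.42 and -0.25 in the mixed samples. All mixed values lay above all alone values. EGLN1 was 0.36 higher in mixed culture (SE 0.08, 1.28-fold, adjusted p = 0.0352), and has no other probe. With spike-in scaling it gave 0.20 (adjusted p = 0.312). EGLN3 (PHD3), itself a known HIF target, read 0.31, 0.91 and 1.11 in the alone samples and 0.05, 0.16 and 0.15 in the mixed samples. The alone samples were widely spread, with replicate 1 nearest the mixed ones. EGLN3 gave -0.66 (SE 0.20, 95% interval -1.13 to -0.19, adjusted p = 0.0782) on all arrays and -0.89 (adjusted p = 0.00522) without that array. Its dimmer probe gave -0.40 (adjusted p = 0.380), with overlapping groups, and -0.74 (adjusted p = 0.0240) without the same array.

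Of 7 HIF target genes tested, 1 (P4HA1) passed at its brightest probe. This is 14.3% of them, near the 10.9% of all names. P4HA1, a collagen prolyl 4-hydroxylase subunit, read 1.46, 1.34 and 1.36 in the alone samples and 0.90, 1.01 and 1.09 in the mixed samples. The highest mixed value lay below the lowest alone value. Its difference was -0.39 (SE 0.08, 0.765-fold, adjusted p = 0.0350; 0.0586 with the replicate block). The printed probe gave -0.52 (adjusted p = 0.0208), another -0.39 (adjusted p = 0.0313) and the fourth, on another transcript, -0.40 (adjusted p = 0.0556; 0.0113 without alone replicate 1). The sister subunit P4HA2 gave 0.04 (adjusted p = 0.740) and -0.14 (adjusted p = 0.211) at its probes.

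VEGFA, the angiogenic growth factor, differed in size between its probes. At the brightest, the alone samples read 3.98, 4.46 and 4.02 and the mixed samples 3.71, 3.93 and 3.90. The mixed values lay just below the alone ones, and alone replicate 2 was the highest. This gave -0.31 (SE 0.15, 95% interval -0.66 to 0.04, adjusted p = 0.202), and -0.15 (adjusted p = 0.426) without alone replicate 2.
At the printed junction probe the alone samples read -2.77, -1.71 and -1.93 and the mixed samples -3.22, -3.48 and -3.67. Mixed values were all lower, with alone replicate 1 nearest to them. This probe gave -1.32 (SE 0.28, 95% interval -1.99 to -0.65, adjusted p = 0.0351; 0.0558 with the replicate block), and -1.64 (adjusted p = 0.00503) without alone replicate 1. Averaged over both probes, VEGFA gave -0.81 (adjusted p = 0.0473). VEGFA transcripts are known to be alternatively spliced, and which of them each probe binds was not tested.

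CA9, a membrane carbonic anhydrase often used as a marker of HIF activity, read -1.63, -2.24 and -2.21 in the alone samples and -1.91, -1.56 and -1.62 in the mixed samples. The groups overlapped, since alone replicate 1 sat among the mixed values. CA9 gave 0.33 (SE 0.19, 95% interval -0.11 to 0.77, adjusted p = 0.274), and 0.53 (adjusted p = 0.0324) without that array, with 0.27 (adjusted p = 0.289) at its other probe. NDRG1, a growth-arrest gene raised by hypoxia, read 2.24, 2.08 and 2.08 in the alone samples and 1.93, 1.74 and 1.62 in the mixed samples. All mixed values were below the alone ones. It gave -0.38 (SE 0.10, adjusted p = 0.0637; 0.0462 with the replicate block), and -0.55 and -0.38 at its other probes (adjusted p = 0.0574 and 0.0680). The first of these gave -0.71 (adjusted p = 0.00852) without alone replicate 1, and the mean over its probes gave -0.44 (adjusted p = 0.0424).
ADM, which encodes the vasodilator peptide adrenomedullin, gave -0.03 (adjusted p = 0.951), with mixed values from 2.79 to 3.66. ERO1L, an oxidase of the endoplasmic reticulum, gave 0.07 (adjusted p = 0.679) and 0.23 (adjusted p = 0.137) at its probes.

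**Figure D3:**
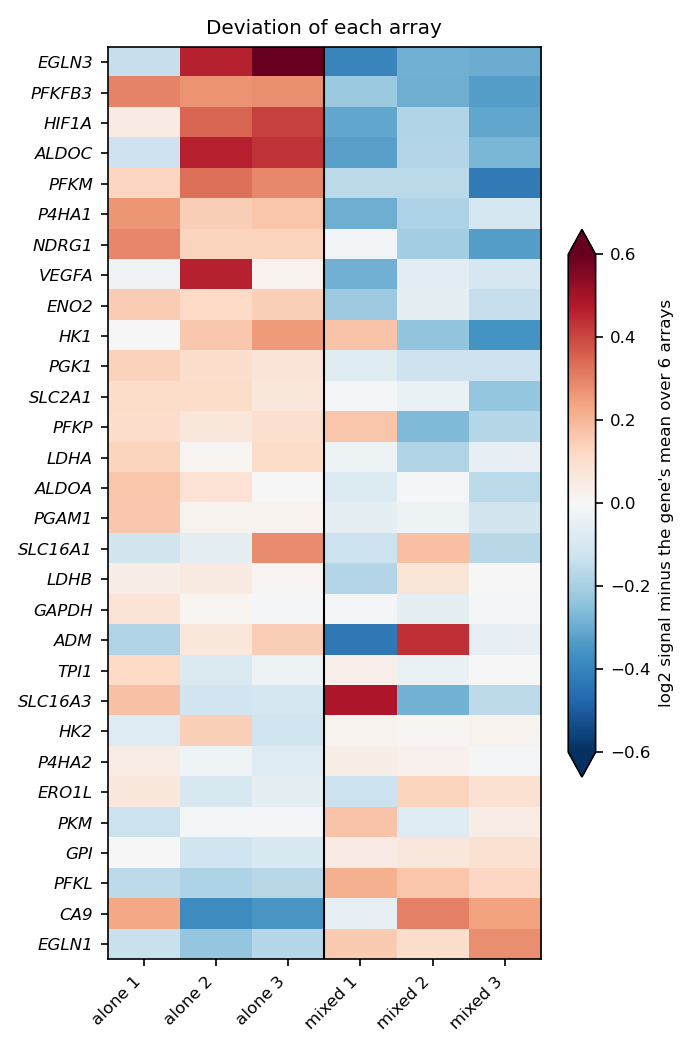
Deviation of each array from the mean of the gene over the 6 arrays, on the log2 scale, for the 30 tested genes ordered by their difference between mixed and alone, with the colour scale ending at 0.6 on both sides. The genes at the top are higher in the alone samples, and for EGLN3, ALDOC, HIF1A and CA9 the column of alone replicate 1 is paler than, or opposite to, those of the other alone samples.

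Counted over probes, 15 of the 67 tested passed, 13 lower and 2 higher in mixed culture, against 11.2% of all probes. These 15 came from 9 genes: the 6 above and HK2, PGAM1 and VEGFA. Of 22 genes with more than 1 tested probe, 18 had differences of 1 sign at all their probes, and HK2, GAPDH, PKM and P4HA2 had both signs. The median range between probes of a gene was 0.18, and the widest were HK2 (1.04) and VEGFA (1.01).
Alone replicate 1 lay nearer to the mixed mean than both other alone samples for 13 of the 30 genes, against 47.0% of all names. These 13 included HIF1A, PFKM, PFKL, EGLN1, EGLN3 and ALDOC, but not PFKFB3 or P4HA1.

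**Figure D4:**
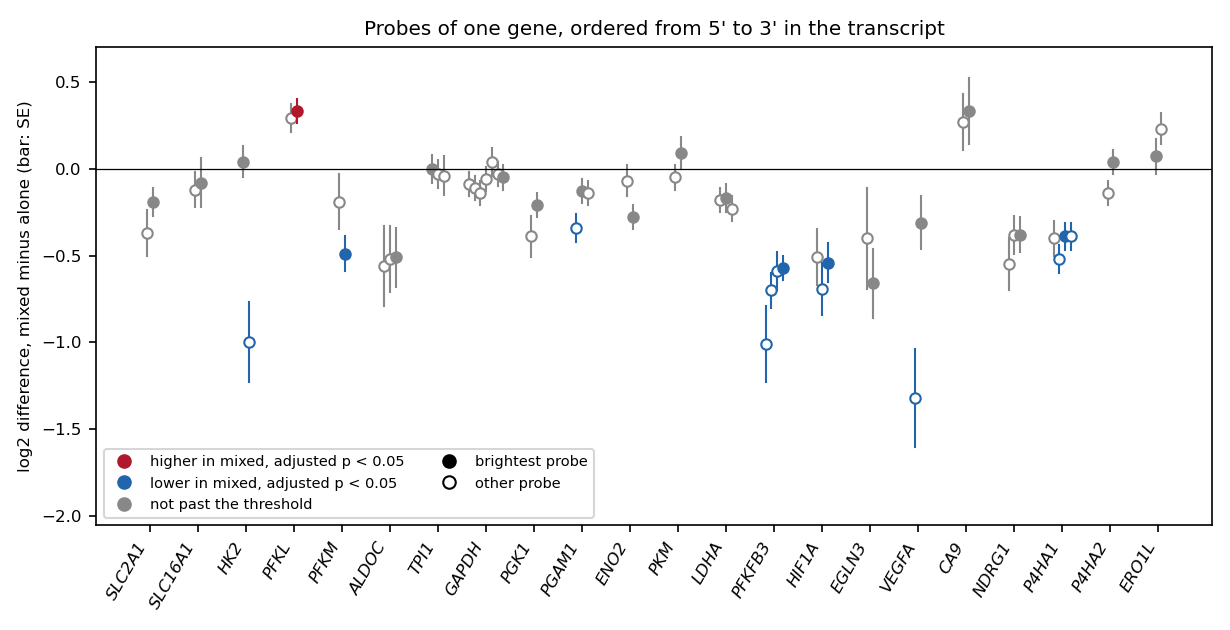
Difference between mixed culture and culture alone at every tested probe of the 22 genes with more than 1, ordered within a gene from the start to the end of the transcript, on the log2 scale with bars of 1 SE. Filled points are the brightest probe. The 4 PFKFB3 probes and the 4 P4HA1 probes lie together below 0, whereas HK2 and VEGFA each have 1 probe far below the other.

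Genes of the same pathways outside the set were counted in the same fit, each at its brightest probe. Several of them have other probes, whose differences are not given one by one. Of 43 other genes of glycolysis and its branches, 25 could be tested and 2 passed, both lower in mixed culture. These were RPE, an epimerase of the pentose phosphate pathway, at -0.48 (SE 0.07, adjusted p = 0.0193) and PGM2, a phosphopentomutase, at -0.40 (SE 0.07, adjusted p = 0.0248). The median of the 25 was -0.03, and the 2 calls are 8.0% of them, against 10.9% of all names. Without alone replicate 2, alone replicate 3, mixed replicate 2 or mixed replicate 3 there were 0 calls, when 0.0263% to 0.09% of all probes passed. Under the replicate block BPGM, a bisphosphoglycerate mutase, also passed, at -0.89 (adjusted p = 0.0355).
Of 51 other genes of the hypoxia response, 42 could be tested and 7 passed, or 16.7% against 10.9% of all names, with a median of -0.08. ANKRD37, an ankyrin repeat protein and known HIF-1 target, was 0.37 higher (adjusted p = 0.0278), and CA2, a cytosolic carbonic anhydrase, 0.36 higher (adjusted p = 0.0432; 0.0509 with the replicate block). ARNT2, a partner of the HIF alpha subunits, gave -0.74 (adjusted p = 0.0140), and -0.90 to -0.42 under the alternatives. CXCR4, a chemokine receptor, gave -0.60 (adjusted p = 0.0378), and -0.76 to -0.39 under the alternatives. JMJD6, an oxygen-dependent dioxygenase, gave -0.49 (adjusted p = 0.0275; 0.0532 with the block), and TCEB1 (elongin C), part of the ligase that destroys HIF, -0.34 (adjusted p = 0.0447; 0.0553 with the block).
INSIG1, which holds back sterol synthesis, read 2.49, 3.83 and 3.79 in the alone samples and 2.06, 1.76 and 1.71 in the mixed samples. Alone replicate 1 lay far below the other alone samples. Its difference was -1.52 (SE 0.36, adjusted p = 0.0442; 0.0618 with the block and 0.0523 with quantile normalization), and -1.97 (adjusted p = 0.00381) without that array. The count of 7 became 15 without alone replicate 1, when 26.3% of all names passed, and 4 under the replicate block, when 10.6% of all probes did. It was 0 without alone replicate 2, alone replicate 3, mixed replicate 2 or mixed replicate 3, when 0.0263% to 0.09% of all probes passed.

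Genes of cell handling and of Ras output were counted in the same fit, also at their brightest probes. Of 14 dissociation and sorting stress genes, 5 were higher in mixed culture (BTG2, EGR1, ATF3, FOS and DUSP1) and 1 lower (DNAJB1), against 5.63% and 5.29% of all names, with a median of 0.27, and their mean signal was 2.02 to 2.10 alone and 2.26 to 2.42 mixed. Of 13 Ras-MAPK output genes, 1 was higher (EGR1) and 3 lower (EPHA2, FOSL1 and CCND1, against the same shares of all names), with a median of -0.19, and their mean signal was 1.19 to 1.26 alone and 0.97 to 1.22 mixed. Under the replicate block CCND1 lost its call (adjusted p = 0.0633), while IER3 (-0.49, adjusted p = 0.0377) and SPRED1 (0.39, adjusted p = 0.0491) gained one. Without alone replicate 1 these counts were 6 higher and 1 lower for the stress genes, and 2 higher and 3 lower for Ras-MAPK output, when 26.3% of all names passed. The mean signal of the 30 genes of the set was 3.28 to 3.30 alone and 3.12 to 3.17 mixed. The part of handling, of Ras output or of remaining normal cells in the differences above was not tested.

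PDK1, the kinase that keeps pyruvate out of the mitochondria, is a HIF target outside the set. At the brighter of its 2 probes it read -1.25, -0.57 and -0.45 in the alone samples and -1.24, -0.74 and -0.84 in the mixed samples. The difference was -0.18 (SE 0.24, adjusted p = 0.636) with overlapping groups. Without alone replicate 1 this probe gave -0.43 (adjusted p = 0.112).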

How the data were processed

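Total RNA from 6 sorted samples, 3 alone and 3 mixed, was hybridised in 1 colour to Agilent Canine V2 4x44K arrays. The authors deposited Feature Extraction 10.10.1.1 output, whose processed intensity per spot is background-subtracted and detrended, and a table of log2 values, which equals the log2 processed intensity minus the 75th percentile of the array (median departure at most 0.001 over 26529 probes). A normalization is not given in the sources used here. Groups came from the sample titles.

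Control spots and outlier-flagged spots were left out, and spots of one probe were averaged. Log2 intensities minus the 75th percentile of each array were compared in R 4.3.3 by limma 3.58.1 (lmFit and eBayes), with two-sided p-values adjusted by Benjamini-Hochberg. The 26535 probes tested had to be well above background throughout 1 group or both. No member was named through a RefSeq accession. Every gene of the set is named, with full statistics for those past the threshold and for HK2, SLC2A1, PFKFB3, LDHA, HIF1A, VEGFA and CA9, and of the other lists the genes past the threshold, at most 8 a list. ALDOC, EGLN3, NDRG1, PGK1 and ENO2, and second probes, were given in more detail, and BPGM, IER3, SPRED1 and CLDN4 named, after their values were seen. The genes and lists were chosen with earlier results of these data known. Promoter and protein sequences were not used here.

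Deviations of arrays with the same replicate number correlated at 0.349, 0.162 and 0.296 over 26529 probes (different numbers at -0.329 to 0.238). The numbers, taken from the titles, were therefore taken as a possible pairing of the samples. The reported fit was unpaired, and a replicate block was an alternative. In both groups the number is also the position on the slide. The other alternatives were spike-in scaling, quantile normalization, normexp (offset 50), dropping the filter or asking it of all 6 arrays, using the deposited table or the methods' t-test, averaging a gene's probes and leaving out each array. Scripts were first tested on simulated data. Python 3.11.15 with numpy 2.4.6, pandas 2.3.3 and matplotlib 3.10.9 was used for tables and plots.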

Additional observations from a re-analysis of the deposited data

How the results depend on the processing

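The number of probes called (2978) became 995 with spike-in scaling, 12 with no filter on dim probes and 826 with the methods' t-test, and ran from 7 to 7335 when 1 array was left out. For the 30 genes the count of 6 became 2 with spike-in scaling and 3 with the t-test (PFKFB3, PFKL and PGK1), against 3.75% and 3.11% of all probes. It became 0 with no filter (11 at an unadjusted p under 0.05, a level at which all probes were not counted), where 0.0275% of all probes passed. With 1 array left out it ran from 0 to 10. The 2 other glycolysis genes became 1 with spike-in scaling and 0 with no filter, and ran from 0 to 3 with 1 array left out. The 7 other hypoxia genes became 2 with spike-in scaling, 0 with no filter and 2 with the t-test, and ran from 0 to 15 with 1 array left out. With the replicate block they became 4, the 6 genes of the set 4 (EGLN1, HIF1A, PFKFB3 and NDRG1) and all probes 2825. Among the genes named, the block changed no call other than those given beside the results. The filter for all 6 arrays, normexp, quantile normalization and the deposited table left all 4 counts within 1.5 times, as did the mean over a gene's probes for the gene counts, but the genes past the threshold were not always the same. Quantile normalization lost HIF1A, the PGAM1 probe and INSIG1 and gained ENO2. The mean over probes lost HIF1A, PFKM and INSIG1 and gained NDRG1 and VEGFA, sharing 4 of the 6 genes of the set. Normexp kept all 6 and added ENO2, NDRG1 and PGK1. The cause of these changes was not tested.

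All 24 results past the threshold kept their sign under each alternative run, but most alternatives could not have turned it. The t-test, the replicate block and the changed filters use the same difference, and the deposited table holds nearly the same values. In all 24 the groups did not overlap, so leaving out 1 array could not turn the sign either. That left spike-in scaling, quantile normalization, normexp and, for genes with several tested probes, the mean over probes. Signs turned only for genes that did not pass. With spike-in scaling these were SLC16A3 and HK2 (both -0.13), GPI (-0.02), PKM (-0.07), P4HA2 (-0.12) and ERO1L (-0.10). With quantile normalization they were TPI1 (0.07), LDHB (0.01) and ADM (0.02), with normexp HK2 (-0.01) and ADM (0.02), and with the mean over probes HK2 (-0.48) and P4HA2 (-0.05). With 1 array left out, the range was -0.19 to 0.04 for SLC16A1, -0.21 to 0.18 for SLC16A3, -0.02 to 0.12 for HK2, -0.05 to 0.06 for TPI1, -0.12 to 0.01 for LDHB and -0.25 to 0.18 for ADM. No fit with the slide as a block could be made, because neither slide held both groups.

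A probe that was not well above background, as for PFKFB4 and EPAS1, gave no difference.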
